A study of Mus musculus with 2 samples.

Results

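The 8 complement genes described here were the subunits of the recognition molecule C1q (C1qa, C1qb and C1qc), the central component C3, the anaphylatoxin receptors C3ar1 and C5ar1, and the integrin chains Itgam and Itgb2 of complement receptor 3. They were chosen by gene symbol from the 32285 genes of the feature table, and their raw unique molecular identifiers (UMIs) were summed per hashtag and per cell cluster. Of the 11171 genes with enough UMIs to be tested, 7 were among the 8, and C3 was not.

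Single-cell RNA sequencing in droplets (3′ chemistry) was run on microglia, the macrophages that reside in the brain. Cells from the brains of mice 12 weeks old were sorted as CD11b+ CD45+ Ly6G- CD206-, tagged with hashtag antibodies and run as 1 pool. The TAM group held 5 hashtags (TAM1 to TAM5) of mice given tamoxifen (TAM) for 4 weeks, and the oil group 5 hashtags (Oil1 to Oil5) of mice given oil. Both groups were Cx3cr1CreERT2(Litt) heterozygotes. That allele places a recombinase activated by tamoxifen at the locus of the fractalkine receptor of microglia, so cells of both groups carry CreERT2 and 1 altered Cx3cr1 copy, and Cre-negative mice were not analysed here. Whether every hashtag came from a mouse of its own is not stated in the labels, so a p-value here reflects variation among hashtags that may be technical. CD11b, the gate of the sort, is the protein of Itgam, so cells with little of it were left out by design.

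In the classical pathway of complement, C1q binds a target surface and starts a protease cascade that cleaves C3. Fragments of C3 tag the surface, and complement receptor 3 on microglia, the pair of Itgam and Itgb2, takes up what is tagged; in the developing mouse brain this route removes synapses. The small fragments C3a and C5a act on the G protein-coupled receptors C3ar1 and C5ar1. Microglia are the main source of C1q in the mouse brain.

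The C1q genes form a cluster on the minus strand of mouse chromosome 4 (GRCm38, which is mm10, GENCODE M21 annotation). C1qb lies at 136880129 to 136886187, C1qc at 136889804 to 136893065 and C1qa at 136895917 to 136898803, which together span 18.7 kb. Promoter sequence from the RefSeq table (GRCm38.p6, up to 250 bases before each start) was found for 6 of the 8 genes, and not for C1qa and Itgb2. Sequence is printed only outside the GENCODE gene. It is shown for C1qb and C1qc, members of 1 gene cluster that kept nearly the same proportions in every hashtag. It is also shown for C3ar1, the gene with the largest log2 fold change among the 7 tested. C1qb and C1qc have in capitals the letters GAGGAA, a core bound by PU.1 and other ETS factors, read as TTCCTC on the other strand. C3ar1 has in capitals a match to TGANTCA, the AP-1 element bound by Fos and Jun proteins.
C1qb, chr4:136886201-136886450, minus strand: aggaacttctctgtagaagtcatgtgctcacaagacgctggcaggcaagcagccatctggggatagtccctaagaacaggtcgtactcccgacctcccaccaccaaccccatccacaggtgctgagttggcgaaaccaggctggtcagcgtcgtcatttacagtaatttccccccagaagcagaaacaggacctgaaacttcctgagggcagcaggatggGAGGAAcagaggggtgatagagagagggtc
C1qc, chr4:136893066-136893164, minus strand: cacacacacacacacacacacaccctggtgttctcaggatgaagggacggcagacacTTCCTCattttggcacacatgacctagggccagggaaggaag
C3ar1, chr6:122856162-122856407, minus strand: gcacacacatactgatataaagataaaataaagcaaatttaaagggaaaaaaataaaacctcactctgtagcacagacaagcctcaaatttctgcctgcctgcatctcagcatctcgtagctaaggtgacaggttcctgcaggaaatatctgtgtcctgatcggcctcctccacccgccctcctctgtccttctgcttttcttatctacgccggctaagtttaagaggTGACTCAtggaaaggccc
GAGGAA lies at bases −30 to −25 from the RefSeq start of C1qb and, on the opposite strand, at −193 to −188 of C1qc. The AP-1 match of C3ar1, TGACTCA, lies at −22 to −16. On both strands of 300-base windows of 32851 mouse promoters, from 250 bases before to 50 after the start, GAGGAA was found in 28.3%, TGANTCA in 7.81% and TGCTGAC, a Maf factor element, in 4.67%. Itgam (chromosome 7, 128062640 to 128118491, plus strand) held GAGGAA at 3 places in its window, C3 and C5ar1 held none of these motifs, and TGCTGAC was in none of the 6 promoters. A match describes letters and not a bound site.

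The analysed cells were 7903 single-hashtag barcodes in 9 clusters, and 7545 of them lay in the 7 clusters called microglia-like, where each of 14 microglial markers was found in most of the cells. Such cells numbered 587 to 903 per hashtag, with 2959521 to 4795880 UMIs in sum and medians of 4886 to 5089 per cell. In both treatments the summed levels of monocyte, dendritic cell, neutrophil, border macrophage, lymphocyte, neuron, astrocyte, oligodendrocyte and vascular markers overlapped. Neutrophil markers summed to 364 to 438 CPM (UMIs of a gene per 1000000 UMIs) in TAM and to 362 to 439 CPM in oil hashtags, while 5 of the 6 were at 0 in cluster 2, the largest. The 14 microglial markers summed to 27351 to 28424 CPM in TAM and to 28143 to 30831 CPM in oil hashtags, with means of 28081 and 29805 CPM. Oil1 alone among the oil hashtags lay below the highest TAM hashtag, and this sum was not tested. The 19 immediate early genes listed, which respond to stimuli that include dissociation, did not overlap, with mean log2 CPM of 3.99 to 5.05 in TAM and 5.15 to 7.11 in oil hashtags. Xist and 4 Y-linked genes put TAM1, TAM2, Oil1 and Oil2 apart as male; no label states the sex.

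Over all microglia-like cells, 3 of the 7 tested genes fell with TAM and none rose (edgeR quasi-likelihood test, adjusted p below 0.05 over all genes tested). Of all genes tested, 2.88% were called lower and 1.64% higher, 4.52% in all. C1qa, C1qc and C3ar1 fell. C1qb, C5ar1, Itgam and Itgb2 did not pass. At an unadjusted p under 0.05, 5 genes were lower and 0 higher in edgeR, where 10.6% of all genes were lower at that p. DESeq2 called 4 lower and 0 higher at an adjusted p below 0.05, and 2.66% of all genes lower. With the number in the hashtag name as a replicate block, 5 genes fell, C1qb and C5ar1 being the others, against 4.78% of all genes called lower in that fit. The median log2 fold change was −0.14 over the 7 tested genes and −0.00036 over all genes tested.

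**Figure D1:**
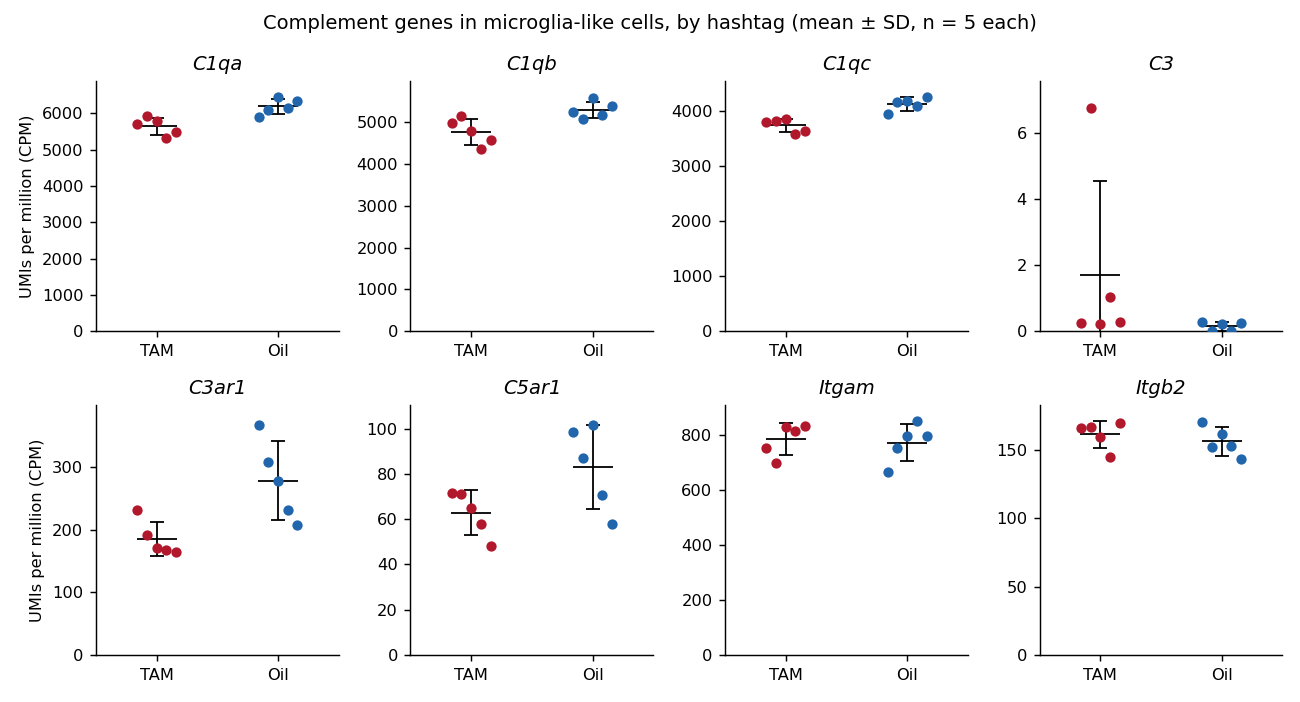
Level of each complement gene in microglia-like cells, in CPM after TMM scaling, or of total UMIs for C3 (vertical axis, from 0), for TAM and oil hashtags; points are hashtags in order of number, the wide line is the mean and the whiskers the SD (n = 5 each). C1qc does not overlap between treatments, C3ar1 is between 164 and 232 CPM in TAM and between 208 and 367 CPM in oil hashtags, and TAM2 holds most of C3.

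The 3 C1q subunits were slightly lower in TAM hashtags. The order of hashtags differed among them, the lowest oil hashtag being Oil1 for C1qa and C1qc and Oil2 for C1qb. C1qa was at 5712, 5916, 5796, 5337 and 5487 CPM in TAM1 to TAM5, and at 5906, 6107, 6448, 6157 and 6353 CPM in Oil1 to Oil5. Only TAM2 exceeded the lowest oil hashtag, Oil1. The means were 5649.8 ± 235 CPM in TAM and 6194 ± 213 CPM in oil hashtags (SD, n = 5 each), a log2 fold change of −0.13 ± 0.03 (SE, adjusted p = 0.034, edgeR). C1qb was at 4977, 5151, 4781, 4358 and 4564 CPM in TAM1 to TAM5 and at 5238, 5062, 5581, 5175 and 5377 CPM in Oil1 to Oil5. TAM2 again lay above the lowest oil hashtag, here Oil2. The log2 fold change of −0.15 ± 0.04 just missed the threshold (adjusted p = 0.053, edgeR), and passed with the replicate block (−0.15, adjusted p = 0.029). C1qc was at 3795, 3814, 3857, 3579.5 and 3632 CPM in TAM1 to TAM5 and at 3937, 4158, 4179, 4083 and 4247 CPM in Oil1 to Oil5. All 5 TAM hashtags lay below all 5 oil hashtags, which held in this direction for 3.2% of all genes tested. The log2 fold change of C1qc was −0.14 ± 0.03 (adjusted p = 0.018, edgeR).

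These calls were close to the threshold. Scaling by library size alone gave −0.10 for C1qa (adjusted p = 0.081, edgeR) and −0.11 for C1qc (0.047). C1qa missed the threshold without TAM3, TAM4, TAM5, Oil2, Oil3, Oil4 or Oil5 (adjusted p = 0.053 to 0.117, edgeR), and C1qc without TAM4 (0.063), TAM5 (0.061) or Oil3 (0.067). C1qb, in turn, passed without TAM1 (0.039) or TAM2 (0.020).

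The subunits kept nearly the same proportions in every hashtag. Of all C1q UMIs, C1qa made up 39.4% to 40.2% in TAM and 39.2% to 39.9% in oil hashtags, C1qb 32.8% to 34.6% in TAM and 33.0% to 34.7% in oil, and C1qc 25.6% to 27.0% in TAM and 25.8% to 27.1% in oil. All 3 ranges overlapped between treatments, and across the 7 microglia-like clusters C1qa stayed between 37.6% and 40.2%. With each cell thinned to 2000 UMIs, 99.7% of 7444 microglia-like cells held a UMI of all 3 subunits. The median cell had 72 C1q UMIs at full depth, with 45 at the 10th and 114 at the 90th percentile.

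C3, whose cleavage is the step on which the complement pathways meet (chromosome 17, 57203970 to 57228136, minus strand), was nearly absent from microglia-like cells. It had 30 UMIs in 12 of 7545 cells, or 0.159% (exact 95% interval 0.0822% to 0.278%, counting error only). TAM1 to TAM5 held 1, 20, 1, 4 and 1 UMIs, and Oil1 to Oil5 held 1, 0, 1, 0 and 1. Of the 20 UMIs of TAM2, 17 came from a single cell of cluster 2, which had 52 C1qa and 13 Cd74 UMIs among its 7351. The other 11 cells held 13 UMIs together. In Oil2, 0 of 624 cells allow a share of up to 0.481% with a C3 UMI by 3 counts, or 0.589% by the exact 95% interval. Outside the microglia-like clusters, 11 of the 52 cells of cluster 7 held C3 (21.2%, 11.1% to 34.7%), with 13 UMIs. That cluster was led by H2-Eb1 and H2-Aa, of MHC class II, and by Itgal, and had 4 of 14 microglial markers in most of its cells, so it was left unnamed. It held 38 TAM and 14 oil cells.

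**Figure D2:**
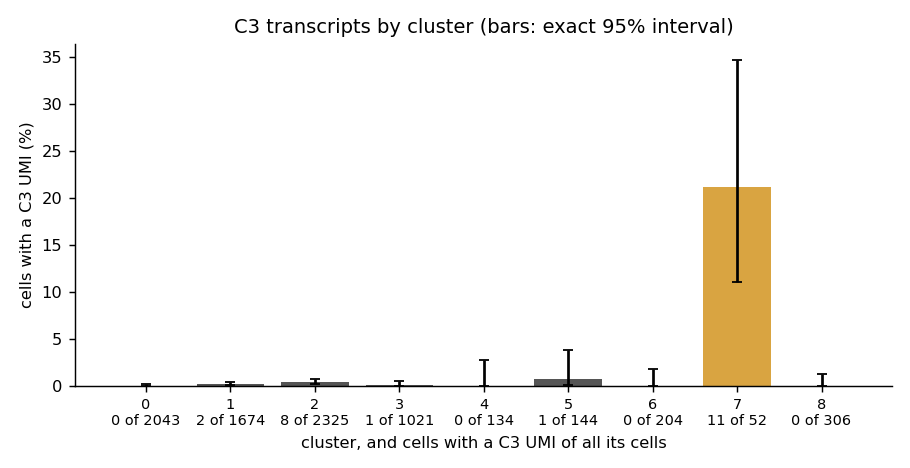
Share of cells with at least 1 C3 UMI (vertical axis, percent) in each cluster, with the cells counted under each bar; bars are exact 95% binomial intervals. Cluster 7 stands at 21.2%, and the largest microglia-like cluster, cluster 2, at 0.344%.

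C3ar1, the receptor of C3a (chromosome 6, 122847138 to 122856161, minus strand), had the largest change of the 7 tested genes. It was at 232, 191, 171, 168 and 164 CPM in TAM1 to TAM5, and at 367, 308, 278, 231 and 208 CPM in Oil1 to Oil5. Oil4 and Oil5 lay below TAM1, Oil4 by less than 1 CPM, and all oil hashtags lay above the other TAM hashtags. The means were 185 ± 27.9 CPM in TAM and 278 ± 63.0 CPM in oil hashtags (SD, n = 5 each), with a log2 fold change of −0.58 ± 0.13 (adjusted p = 0.015, edgeR). The call was lost without TAM5 (−0.54, adjusted p = 0.051) and kept without any other single hashtag (0.0035 to 0.0497). With each cell thinned to 2000 UMIs, C3ar1 was found in 29.4 ± 2.43% of cells in TAM and in 38.5 ± 5.90% in oil hashtags. Unthinned shares were 54.3 ± 4.10% in TAM and 62.9 ± 6.56% in oil. No cluster here was of a cell type known to lack C3ar1, and in the unnamed cluster 8, of low depth, the thinned share was 15.5% of 58 cells.

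The level of C3ar1 ran with that of the immediate early genes, whose mean log2 CPM was 5.03, 5.05, 4.41, 4.04 and 3.99 in TAM1 to TAM5 and 7.11, 6.44, 6.21, 5.64 and 5.15 in Oil1 to Oil5. Within each treatment the hashtags had the same order in both, apart from TAM1 and TAM2, which were close in the immediate early level. With that level as a covariate C3ar1 was at 0.09 ± 0.08, with the hashtag number from 1 to 10 at 0.25 ± 0.11, and without Oil1, Oil2 and Oil3 together at −0.24 ± 0.11, and none of these passed (adjusted p = 0.80, 0.47 and 0.43, edgeR). Treatment and immediate early level cannot be told apart over these hashtags, since their levels do not overlap. The same holds for the hashtag number, which is 1 to 5 for Oil1 to Oil5 and 6 to 10 for TAM1 to TAM5. The C1q subunits were at −0.13, −0.08 and −0.15 (C1qa, C1qb and C1qc) adjusted for the level and at −0.14, −0.14 and −0.15 without Oil1, Oil2 and Oil3, and did not pass in either fit.

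C5ar1, the receptor of C5a (chromosome 7, 16246743 to 16259540, minus strand), was at 71.8, 71.4, 64.8, 57.9 and 48.1 CPM in TAM1 to TAM5. In Oil1 to Oil5 it was at 98.5, 87.2, 102, 70.7 and 58.1 CPM. Oil1, Oil2 and Oil3 lay above all TAM hashtags and the other two oil hashtags lay among them. Its log2 fold change of −0.41 ± 0.14 did not pass (adjusted p = 0.10, edgeR), but it passed with the replicate block (−0.41 ± 0.07, adjusted p = 0.00068) and without Oil5 (−0.51, 0.019). Adjusted for the immediate early level it was at 0.24, and for the hashtag number at 0.39, neither of which passed (adjusted p = 0.60 and 0.46, edgeR). Neither covariate overlaps between treatments.

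Neither chain of complement receptor 3 changed past the threshold. Itgam, the CD11b chain, was at 754, 696, 829, 812 and 832 CPM in TAM1 to TAM5 and at 666, 753, 794, 848 and 795 CPM in Oil1 to Oil5. The treatments overlapped almost wholly, with a log2 fold change of 0.03 ± 0.06 (adjusted p = 0.88, edgeR). Itgb2, the CD18 chain shared by several leukocyte integrins (chromosome 10, 77530252 to 77565708, plus strand), was at 167, 167, 159.7, 145 and 169.8 CPM in TAM1 to TAM5. In Oil1 to Oil5 it was at 171, 152, 162, 153 and 144 CPM. Its log2 fold change was 0.05 ± 0.06 (adjusted p = 0.71, edgeR), and the treatments overlapped. In thinned cells, 75.6% held Itgam in TAM and 75.7% in oil hashtags. For Itgb2 the shares were 28.0% in TAM and 26.4% in oil. How the authors' counting treated strand and overlaps is not stated, and Itgam overlaps the annotated gene Gm49368 on the same strand.

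Levels by cell cluster are a description, since the clusters were made from these cells, and are given as means over hashtags with at least 10 cells, in CPM of the cluster's own UMIs. The summed C1q level was highest in cluster 1, at 18603 ± 621 CPM (SD, n = 10), followed by cluster 6, led by Spp1, Lgals3 and Lpl, at 16451 ± 1358 (n = 10). Clusters 4, led by Ifit3, and 0 came next at 15878 ± 874 (n = 8) and 15356 ± 456 (n = 10), and did not differ from cluster 6 beyond their spread. Cluster 3, led by Fos and Fosb, was at 14282 ± 564 (n = 6), and cluster 2, at 12691 ± 399.9 (n = 10), was close to the Mki67-led cluster 5 at 12213 ± 879.6 (n = 3). Cells were also clustered without the 8 genes, 48 other complement genes and 12 genes of microglial uptake, such as Trem2 and P2ry12. Clusters 0 and 1 then had no counterparts of their own. A single cluster of 2736 cells then held 1218 of the 2043 cells of cluster 0 and 1391 of the 1674 cells of cluster 1. Pooled over hashtags, C1q was at 4981 CPM in cluster 7 and at 5917 CPM in cluster 8, whose cells had a median of 1502 UMIs. Among 49 thinned cells of cluster 7, 42.9% held no C1q UMI, and at full depth the median was 3.5.

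Both anaphylatoxin receptors were highest in cluster 6. C3ar1 was there at 522 ± 109.6 CPM (n = 10), followed by cluster 3 at 323 ± 55.4 (n = 6). The other microglia-like clusters lay between 177 and 229 CPM. Their spreads overlapped, though cluster 1 was above cluster 0 in every hashtag. C5ar1 was at 204 ± 65.6 CPM in cluster 6 and at 96.3 ± 24.1 in cluster 3, against 47.9 to 67.6 CPM in the others. These means mix treatments unequally, since cluster 3 had 5 oil and 1 TAM hashtags and cluster 5 had 3 TAM hashtags alone. Among oil hashtags C3ar1 was at 598 ± 100.2 CPM in cluster 6, 334 ± 53.7 in cluster 3 and 268 ± 48.6 in cluster 1. In Oil1 to Oil5 it was at 405, 328, 371, 290 and 278 CPM in cluster 3. The values in cluster 1 were 316, 299.7, 287, 236 and 199 CPM, lower in every oil hashtag. C5ar1 among oil hashtags was at 100.3 ± 24.7 CPM in cluster 3 and 76.2 ± 21.2 in cluster 1. It was higher in cluster 3 in all oil hashtags but Oil2, where it was at 84.5 against 98.6 CPM. In thinned cells of cluster 6, 18.4% held UMIs of both receptors, against 4.88% of all microglia-like cells. Itgam ran differently, with 735 to 861 CPM in clusters 0 to 4, 553 ± 101 in cluster 6 and 499 ± 45.0 (n = 3) in cluster 5. Itgb2 stayed between 142 and 205 CPM in the microglia-like clusters and was at 405 CPM, pooled, in cluster 7.

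**Figure D3:**
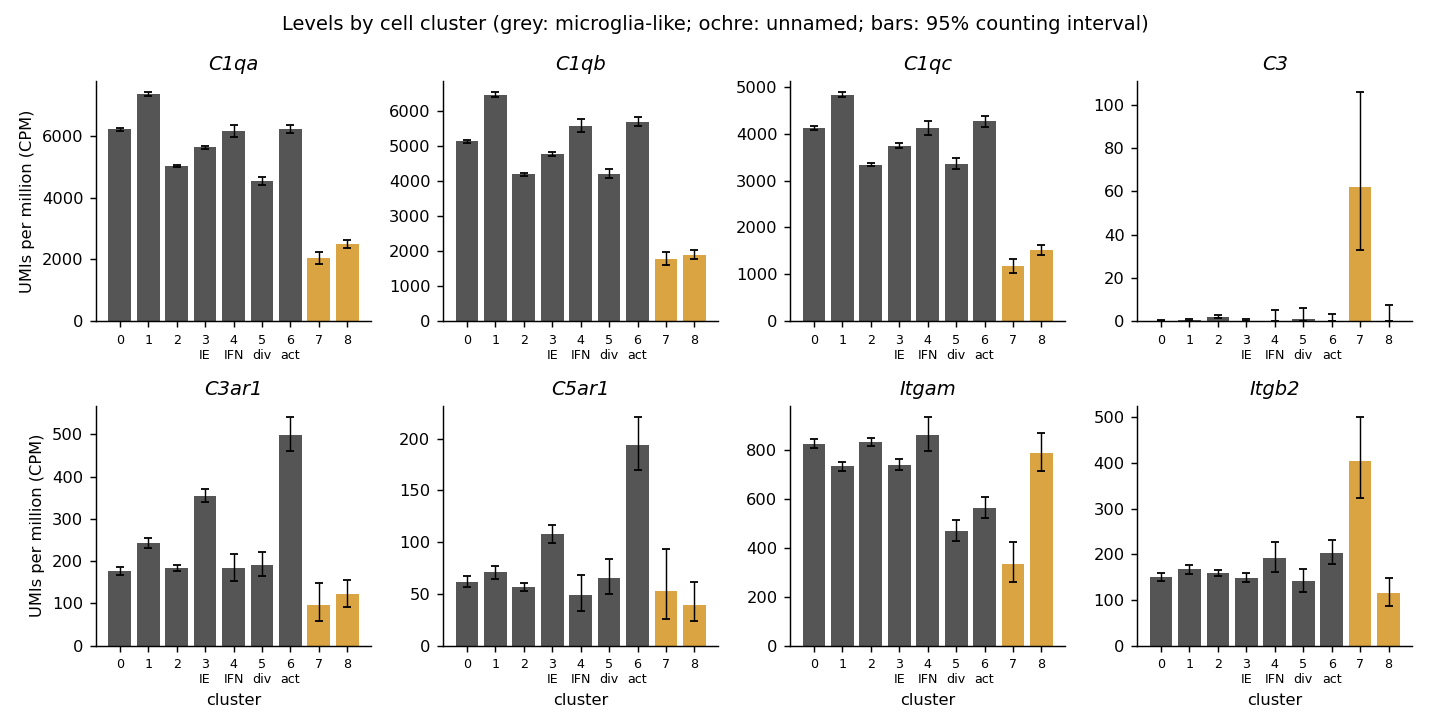
Level of each complement gene by cluster, pooled over hashtags, in CPM (vertical axes from 0); grey bars are microglia-like clusters, ochre bars the unnamed clusters 7 and 8, and whiskers exact 95% counting intervals. IE, IFN, div and act mark the clusters led by immediate early, interferon, cell division and activation genes. C3ar1 and C5ar1 are highest in cluster 6, at 499 and 194 CPM, and C3 stands out in cluster 7.

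The genes whose level over the 9 clusters was most like that of C1q, by Pearson's r of log2(CPM + 1) among 9584 genes, were Pja1, a ubiquitin ligase gene (r = 0.999), Cst3, which encodes cystatin C (0.991), and Coasy, a gene of coenzyme A synthesis (0.987). For C3 they were Mbp (0.982), Tgfbi (0.976) and Klhl5 (0.975), which like C3 were highest in cluster 7. Pja1 and Coasy were both at 4.76 CPM in cluster 7 and 5.95 CPM in cluster 8, levels near the counting floor. For scale, 11 UMIs of C5ar1 came to 52.4 CPM in cluster 7, and 20 UMIs came to 39.7 CPM in cluster 8. These 2 clusters were also the lowest in C1q. In the microglia-like clusters Pja1 was at 12.6 to 19.9 CPM and Coasy at 15.8 to 25.7 CPM. All clusters share 1 library, and the r values are descriptions.

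Treatment was also compared within the clusters that had at least 20 cells in every hashtag, which were 0, 1 and 2. C3ar1 was called in cluster 1 and no other gene of the group in any, against 0.604% of genes called lower in cluster 1, 0.0916% in cluster 0 and 0.265% in cluster 2. C3ar1 in cluster 1 was at 212, 204, 181, 183 and 173 CPM in TAM1 to TAM5 and at 316, 299.7, 287, 236 and 199 CPM in Oil1 to Oil5. Oil5 alone among the oil hashtags lay below TAM1 and TAM2. The log2 fold change was −0.47 ± 0.10 (adjusted p = 0.012, edgeR), which missed the threshold when TAM3 (adjusted p = 0.071), TAM4 (0.053), TAM5 (0.065), Oil1 (0.062) or Oil3 (0.0703) was left out. In cluster 0 C3ar1 was at −0.24 ± 0.09 (adjusted p = 0.45) and in cluster 2 at −0.26 ± 0.11 (adjusted p = 0.50, edgeR). At an unadjusted p under 0.05, C3ar1 was the 1 gene of the group that was lower in each of these 2 clusters, as were 3.81% of all genes in cluster 0 and 4.42% in cluster 2. With cells clustered without the complement and uptake genes, C3ar1 was at −0.11 ± 0.10 and C5ar1 at 0.18 ± 0.13 in the counterpart of cluster 2. They were at −0.26 and −0.11 in cluster 2 itself, and cluster 1 had no counterpart of its own. The C1q subunits were nearer 0 within clusters than over all cells. C1qa was at −0.01 ± 0.04, −0.05 ± 0.04 and −0.04 ± 0.04 in clusters 0, 1 and 2, C1qb at 0.02, −0.03 and −0.09 and C1qc at −0.02, −0.04 and −0.06, and none passed (adjusted p = 0.58 to 0.99, edgeR). Whether folds differ between clusters was not tested.

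**Figure D4:**
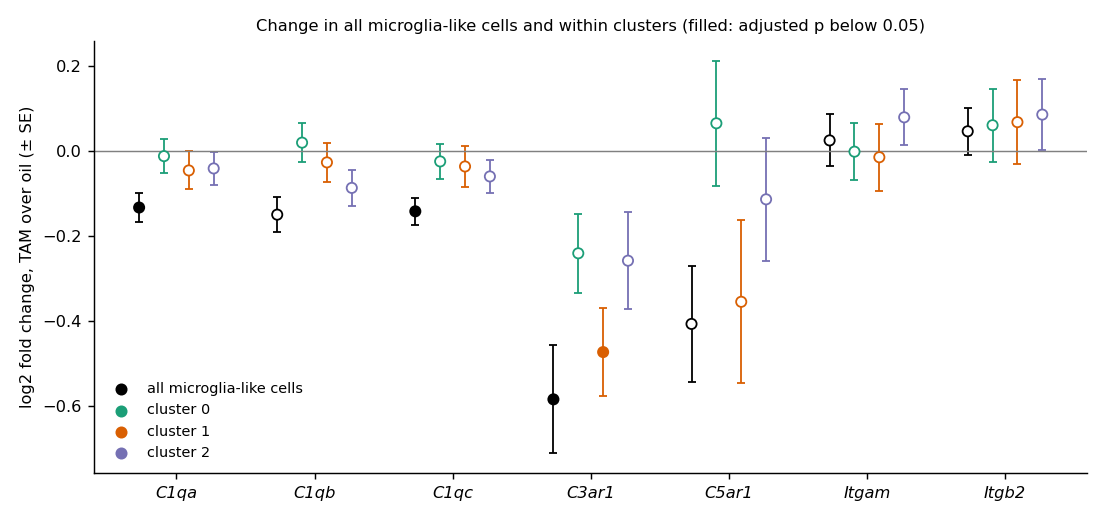
Log2 fold change, TAM over oil, with its standard error (vertical axis), of the 7 tested complement genes in all microglia-like cells (black) and within clusters 0, 1 and 2 (colours); filled points passed at an adjusted p below 0.05. C3ar1 is lowest, at −0.58 over all cells and at −0.47 in cluster 1, and the C1q points within clusters lie nearer 0 than those over all cells.

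The mix of clusters differed between treatments. Cluster 1, the highest in C1q, held 10.8% to 22.1% of the cells of TAM and 24.2% to 30.6% of those of oil hashtags. It was not apart from cluster 0 in the clustering that left out both the complement genes and the uptake genes. Cluster 2, lower in C1q, held 34.4% to 44.3% in TAM and 10.8% to 27.7% in oil. Cluster 3, second in mean C3ar1, held 0.247% to 3.34% in TAM and 4.65% to 46.0% in oil. Cluster 6, the highest in C3ar1 and C5ar1 and also high in C1q, held more in TAM, with 2.31% to 4.52%, than in oil, with 1.51% to 2.17%. None of these ranges overlapped. The part of the mix in the change over all cells was not tested, except that without cluster 3 C3ar1 was at −0.42 ± 0.11 and the C1q subunits at −0.18, −0.20 and −0.19, all 4 of which passed (adjusted p = 0.038, 0.0098, 0.018 and 0.0085, edgeR). C5ar1 was at −0.23 without cluster 3 and did not pass (0.32). The share of all genes called lower without cluster 3 was not taken, so the 4 calls cannot be set beside it.

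Cluster 6 had 12 to 36 cells per hashtag and was not tested. Its summed C1q was 14207 to 16597 CPM in TAM and 16674 to 18346 CPM in oil hashtags, ranges that narrowly did not overlap. Taken singly, C1qc did not overlap either. C1qa did, with TAM up to 6450 and oil from 6105 CPM, as did C1qb, with TAM up to 6001 and oil from 5799 CPM. The share of all genes without overlap in cluster 6 was not taken. C3ar1 was at 446 ± 50.4 CPM in TAM and 598 ± 100.2 CPM in oil hashtags (SD, n = 5 each), and C5ar1 at 164 ± 38.4 in TAM and 243 ± 65.5 in oil. The ranges of C3ar1 and of C5ar1 overlapped, and the highest hashtag was Oil1 for C3ar1 and Oil3 for C5ar1.

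Sex, read from the data, split the hashtags into 2 male and 3 female per treatment. In 1 fit of treatment and sex, C3ar1 was at −0.67 ± 0.11 in male and −0.51 ± 0.09 in female hashtags, and both passed (adjusted p = 0.0017 and 0.0014, edgeR), where 1.15% and 3.41% of all genes were called lower. C1qb was at −0.02 ± 0.05 in male and −0.24 ± 0.04 in female hashtags, C1qa at −0.05 ± 0.05 in male and −0.19 ± 0.04 in female hashtags, and C1qc at −0.09 ± 0.05 in male and −0.18 ± 0.04 in female hashtags. All 3 subunits passed in female hashtags (adjusted p = 0.0018, 0.0068 and 0.012, edgeR) and none in male hashtags (0.93, 0.81 and 0.54). The interaction did not pass for any of the 7 genes (adjusted p = 0.79 to 0.999, edgeR), and of all genes tested 0.0179% were called. At an unadjusted p under 0.05, C1qa and C1qb were the 2 that passed, as did 5.68% of all genes.

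Of 48 other complement genes, 9 had enough UMIs to be tested, 1 rose and none fell, with a median log2 fold change of 0.05. Lrp1, a scavenger receptor that with calreticulin binds C1q-tagged cargo, rose to 412 ± 37.7 CPM in TAM, against 344 ± 22.2 CPM in oil hashtags (log2 fold 0.26 ± 0.06, adjusted p = 0.0196, edgeR). TAM2 lay below Oil1, and omitting TAM3, TAM4, TAM5, Oil2 or Oil3 ended the call (adjusted p = 0.054 to 0.070). Calr, which encodes calreticulin, was at 623 CPM in TAM and 648 CPM in oil hashtags, and C5ar2, the second C5a receptor, at 48.9 CPM in TAM and 45.4 CPM in oil. Among inhibitors 4 of 17 were tested and none passed. Cr1l, which encodes the membrane regulator Crry, was at 139 CPM in TAM and 135 CPM in oil, and C1qbp at 49.1 CPM in TAM and 55.4 CPM in oil. Masp1, at 6.18 CPM in TAM and 6.01 CPM in oil, was the 1 gene tested of 13 of the classical and lectin pathways. None of the 3 alternative and 7 terminal pathway genes was tested, and the untested genes of all lists held at most 69 UMIs. C2 had 45 UMIs, C1ra 36, Cfp 41 and C8g 29 in all microglia-like cells. Cfb and Hc did not exceed 0.203 CPM in the mean of either treatment, Cfd had no UMI, and C6 was at 0 in TAM and 0.0616 CPM in oil.

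All 12 genes listed as partners in microglial uptake were tested, 1 fell and none rose, with a median log2 fold change of −0.06. Trem2, a lipid-sensing receptor gene, fell to 1577 ± 99.7 CPM in TAM, against 1809.8 ± 83.2 CPM in oil hashtags (log2 fold −0.20 ± 0.05, adjusted p = 0.018, edgeR). All TAM hashtags lay below all oil hashtags, as in 3.2% of all genes tested. Omitting TAM3, TAM4, TAM5 or Oil3 ended the call of Trem2 (adjusted p = 0.051 to 0.062, edgeR). Tyrobp, at 1605 to 1808 CPM in TAM and 1829 to 1983 CPM in oil hashtags, did not overlap either. The same held for Itgb5, at 1125 to 1185 CPM in TAM and 1205 to 1243 CPM in oil hashtags. Neither Tyrobp nor Itgb5 passed (adjusted p = 0.096 and 0.24, edgeR). P2ry12, a purinergic receptor gene, was at 2960.1 CPM in TAM and 3008 CPM in oil, Cx3cr1 at 2039 CPM in TAM and 2173 CPM in oil, and Gpr34 at 1890.4 CPM in TAM and 1980.1 CPM in oil, and none of these passed. With the replicate block Lrp1 and Trem2 kept their calls and 1 more listed gene passed, Cd47, named after its value was seen, which encodes an uptake-restraining surface protein. Its log2 fold change was −0.18 ± 0.05 with the block (adjusted p = 0.023, edgeR) and −0.19 ± 0.05 without it (0.057).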

How the data were processed

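Raw UMI counts per gene and barcode, and hashtag counts, were deposited by the authors. Per the file headers the software was Cell Ranger 7.0.0, and per the submitters' processing notes the genome was mm10. No source used here states the barcode rule, gene annotation or strand setting.

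HTODemux (Seurat 5.3.0, centred log ratios, positive quantile 0.99) assigned 8055 of 9975 barcodes to 1 hashtag. The 1737 barcodes with several hashtags (17.4%) and 183 with none were left out; doublets within a hashtag were not sought. Cells needed 500 genes, 1000 UMIs and at most 10% mitochondrial UMIs. Leiden clustering (scanpy 1.11.5, igraph 0.11.9; 2000 variable genes without sex genes, 30 components, 15 neighbours, resolution 0.5) used 3 of the 8 genes. Clusters with fixed microglial markers were called microglia-like; clusters 7 and 8 stayed unnamed.

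Counts were summed per hashtag and fitted over all genes with edgeR 4.0.16 in R 4.3.3 (TMM, filterByExpr, quasi-likelihood F test, Benjamini-Hochberg at 0.05), log2 folds being TAM over oil and SE the absolute log2 fold divided by the root of F. DESeq2 1.42.0, other scalings, filters, covariates, hashtag assignments, clusterings and omitted hashtags were alternatives. On simulated counts of a single fixed dispersion the fit recovered changes of known size. All of these were larger than the changes seen for C1q, C5ar1, Lrp1 and Trem2, so changes that small were not tried. Same-numbered hashtags tended to deviate together (correlations 0.70, 0.52, 0.49, 0.27 and 0.32 over 4069 genes of at least 50 CPM). However, only 2 of the 5 TAM hashtags correlated best with the oil hashtag of their own number. Same-numbered hashtags also shared the sex read from the data. The labels state no pairing, and whether the hashtags were paired was not tested. Blocked values are given where they change a call. Intervals cover counting error only.

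The genes and lists were chosen with earlier results of these data known. All 8 genes are named, with listed genes past the threshold, up to 3 of the highest per list and the 3 most like C1q and C3. Cd74, Tyrobp, Itgb5 and the untested genes with counts were named after their values were seen. Some values that this rule covers are not reported here.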

Additional observations from a re-analysis of the deposited data

Results flagged for a closer look

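In 86 groups of 5 hashtags, 4 values stood apart from the rest of their group by a gap test (gap over range above 0.71); chance alone flags about 1 in 20 groups. C3 was at 6.76 CPM in TAM2, where 17 of 20 UMIs came from 1 cell, against 0.209 to 1.02 CPM in the other TAM hashtags. The C1qa share of C1q UMIs was 39.2% in Oil1, the lowest of the oil hashtags, the others being 39.8% to 39.9%. In cluster 0, C5ar1 was at 40.7 CPM in TAM5 (39 UMIs), against 65.6 to 70.7 CPM in the other TAM hashtags, and Itgam at 727 CPM in TAM2, against 829.9 to 861 CPM in the others.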

How the results depend on the processing

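The number of complement genes called lower over all microglia-like cells was 3 and became 5 without a low-count filter, with sex as a covariate or with the replicate block, 1 in male and 4 in female hashtags alone, and 0 without Oil1, Oil2 and Oil3 together or with a covariate (immediate early level, or hashtag number). Leaving out single hashtags gave 0 to 4, with 0 without TAM5 and 1 without TAM4 or Oil3. Of all genes tested, 2.88% were called lower with no alternative applied and 4.78% with the replicate block. Such shares were not taken for the other alternatives of this paragraph, so their counts cannot be set beside all genes. Without the filter 1 gene was called higher, C3 at a log2 fold change of 2.98, which rests on 1 TAM2 cell. C3ar1 changed sign with these covariates (log2 fold 0.092 with the level and 0.25 with the number), neither of which overlaps between treatments. The number of other listed genes called was 2 and became 4 without cluster 3, and 0 in male hashtags, under the stricter hashtag assignment, with either covariate or without Oil1 to Oil3; single omissions gave 0 to 3. The stricter assignment left 1 to 790 cells per hashtag. In cluster 2 the count stayed 0, and in clusters 0 and 1 the count of 1 became 0 to 1 under single omissions, chosen after seeing the data, as were those for C1q shares, where the TAM minus oil difference in the C1qa share, 0.233 percentage points, became 0.0984 to 0.357, and for detection of C3ar1, where −9.14 became −11.1 to −6.99. Clustering without the complement and uptake genes gave a cluster of 391 cells in place of cluster 6, with C3ar1 at 366 CPM instead of 499. The replicate block changed no call of these and the listed genes other than C1qb, C5ar1 and Cd47. Causes were not tested. Of the log2 folds over all cells under these alternatives, 343 kept direction and side of the threshold, 42 lost and 14 gained a call, 30 changed sign with no call in either fit and 2 reversed with one.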
